A study of Mus musculus with 30 samples.

Results

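The nuclear lamins and the proteins that couple the nucleus to the cytoskeleton were followed as 10 genes, namely the lamin genes Lmna, Lmnb1 and Lmnb2, the SUN genes Sun1 and Sun2, the nesprin genes Syne1, Syne2 and Syne3, and the genes of the inner nuclear membrane proteins emerin (Emd) and lamin B receptor (Lbr). They were taken by gene symbol, and all 10 were present in both deposited RNA tables, which hold 35973 and 35972 gene rows. The deposited site lists were searched for the same symbols, and 10 of their 16367 rows were annotated to a member.

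The samples were primary fibroblasts of mouse tail tendon, given as wildtype in the labels and treated in medium with 0.1% serum. Polyadenylated RNA was sequenced in 3 libraries each of cells given DMSO, blebbistatin at 10 µM, which inhibits non-muscle myosin II, or the kinase inhibitor Y27632 at 30 µM, and ATAC libraries, which mark open chromatin, were made from the same 3 treatments with 3 libraries each. A further 12 genomic libraries, 3 per group, came from cells with neither drug, with blebbistatin alone, with doxycycline at 10 ng/mL alone, or with both. The labels state neither what doxycycline induced nor whether replicates came from separate animals or cultures, so every p-value measures only the spread between these libraries, and the labels give no age, sex or strain.

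The lamina is a mesh of A-type lamins, made from Lmna, and B-type lamins, made from Lmnb1 and Lmnb2, on the inner face of the nuclear envelope. SUN proteins span the inner nuclear membrane, hold the lamina on one side and, in the space between the membranes, grip the KASH domains of nesprins, which reach actin, motors or plectin in the cytoplasm and so carry force to the nucleus. The abundance of A-type lamins is known to scale with tissue stiffness, and tendon is among the stiffer tissues.

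Reads in genes numbered 23375386 to 37061737 per RNA library. Levels are given below as counts scaled to a common library size (CPM, with TMM scaling over the 9 libraries). Treatments are compared with DMSO as log2 differences on the scale of log2(normalised count + 1). The inhibitors are compared with each other as log2 folds that edgeR fitted to read counts. Of the 10 markers fixed for tendon fibroblasts, 9 reached 10 CPM, with Scx at 2.07 to 3.18 as the exception. The summed level of 5 macrophage markers, all detected, was 61.4 to 69.3 CPM in DMSO, 87.0 to 101.8 with blebbistatin and 84.6 to 99.4 with Y27632, and its part in the results below was not tested. Summed markers of endothelium, skeletal muscle, keratinocytes and adipocytes stayed under 5 CPM in every library, and those of Schwann cells lay between 13.8 and 20.47. In these bulk libraries, fewer cells expressing a gene and less RNA of it per cell cannot be told apart.

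A pair of libraries stood apart in a way that touches the nesprins. In DMSO library 3, all 20 genes of a list of very long mRNAs, chosen after the nesprin values were seen, lay below the mean of the other DMSO libraries, by a median of -0.39 on the log2 scale. In Y27632 library 1 the same 20 of 20 lay below the other Y27632 libraries, by a median of -0.22. Results for Syne1, Syne2 and Syne3, whose transcripts are also long, are therefore given with and without these libraries.

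With blebbistatin, 8 of the 10 members passed the test against DMSO (limma, adjusted p under 0.05), 2 higher and 6 lower, where 53.0% of all genes tested passed, 26.1% higher and 26.9% lower. Lmna and Sun2 rose, and Lmnb1, Lmnb2, Sun1, Syne2, Emd and Lbr fell. The median log2 change of the 10 was -0.18, beside 0.00 over all genes, and the median absolute change was 0.31 beside 0.22. For 8 members the libraries of the groups did not overlap, which held for 60.2% of all genes. With Y27632, 6 of the 10 passed, 3 higher and 3 lower, where 35.9% of all genes did, 18.1% higher and 17.8% lower. Here Lmnb1, Sun1 and Sun2 rose, while Syne1, Syne2 and Lbr fell, and the median change was 0.06. For 4 members the groups did not overlap, beside 48.1% of all genes. Both comparisons use the same 3 DMSO libraries. The plot of the members' levels by library shows the values behind each of these calls.

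**Figure D1:**
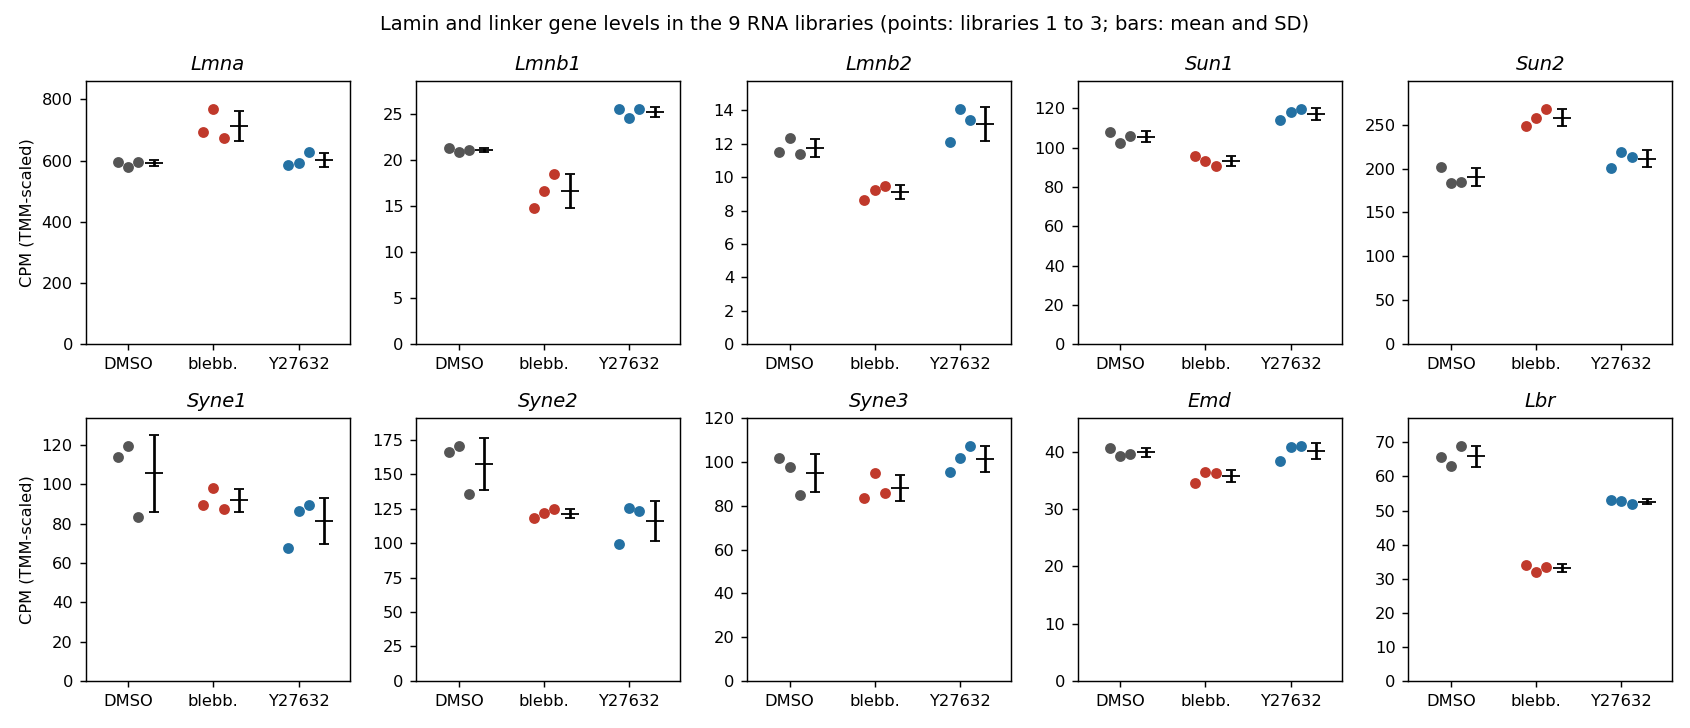
Level of each member in the 9 RNA libraries, in TMM-scaled CPM on axes that start at 0. Points are single libraries in the order 1 to 3, and bars give the mean and SD of 3 libraries. In the Lbr panel the blebbistatin libraries lie lowest, the Y27632 libraries between, and the DMSO libraries highest, with no overlap, while in the Lmnb1 panel the treatments lie on opposite sides of DMSO.

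Among the lamins, Lmna and the B-type genes moved in opposite directions with blebbistatin. Lmna stood at 597, 579.6 and 597 CPM in DMSO, at 695, 768 and 675 with blebbistatin, and at 586, 594 and 627 with Y27632. All 3 blebbistatin libraries were above all 6 others, and the Y27632 and DMSO libraries overlapped. The rise with blebbistatin was 0.27 on the log2 scale (SE 0.041, limma adjusted p = 1.45e-04), or 20.2%, and the difference with Y27632 was 0.03 (SE 0.033, limma adjusted p = 0.586). The counts are per gene and do not separate lamin A from lamin C, the splice forms of this gene.

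Lmnb1, the B-type lamin whose loss is a known mark of senescent fibroblasts, changed in both treatments and in opposite directions. Its level was 21.3, 20.8 and 21.1 CPM in DMSO, 14.8, 16.6 and 18.5 with blebbistatin, and 25.5, 24.5 and 25.5 with Y27632. The 3 groups did not overlap, and the blebbistatin libraries were the most spread. Its mean in normalised counts was 559 ± 5.62 in DMSO and 441 ± 50.0 under blebbistatin (SD, n = 3), a difference of -0.35 on the log2 scale (SE 0.077, limma adjusted p = 0.00243), and rose from 581 ± 6.24 to 694 ± 16.0 with Y27632 (SD, n = 3), a change of 0.26 (SE 0.050, limma adjusted p = 0.00158). The normalised counts of the DMSO libraries differ between these statements because each table was scaled separately.

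Lmnb2, the other B-type lamin, also fell with blebbistatin. It stood at 11.5, 12.4 and 11.4 CPM in DMSO, at 8.63, 9.24 and 9.48 with blebbistatin, and at 12.1, 14.1 and 13.4 with Y27632. Every blebbistatin library was below every other library, and one Y27632 library lay within the DMSO range. The change was -0.37 with blebbistatin (SE 0.078, limma adjusted p = 0.00174) and 0.16 with Y27632 (SE 0.077, limma adjusted p = 0.119), which did not pass.

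The ratio of Lmna to Lmnb1 reads within a library does not depend on scaling between libraries. It was 28.1, 27.8 and 28.3 in DMSO, 46.9, 46.3 and 36.4 with blebbistatin, and 23.0, 24.2 and 24.6 with Y27632, so that the groups did not overlap and lay on both sides of DMSO. The log2 ratio differed from DMSO by 0.61 with blebbistatin and by -0.23 with Y27632. Each difference had an exact two-sided permutation p of 0.1, the smallest that 3 libraries against 3 can give. Gene lengths are not accounted for, so the ratio is not one of transcripts.

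**Figure D2:**
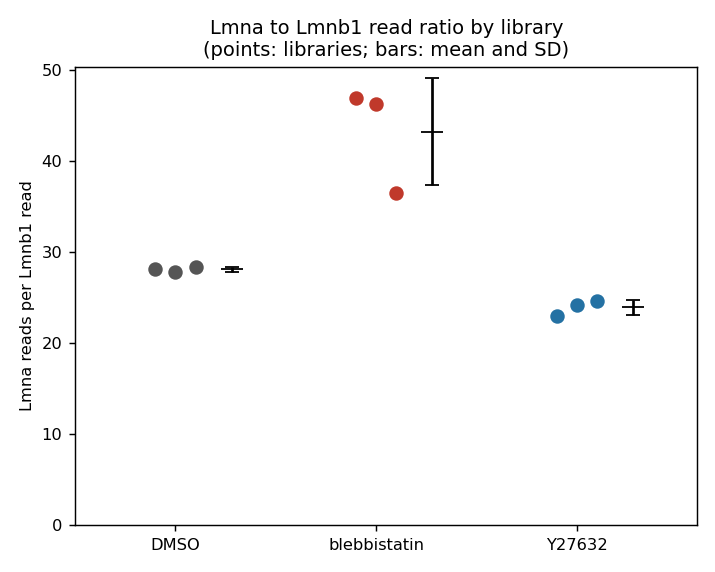
Lmna reads divided by Lmnb1 reads in each of the 9 RNA libraries, with the mean and SD of 3 libraries per group. The DMSO libraries sit between 27.8 and 28.3, all blebbistatin libraries at 36.4 or above, and all Y27632 libraries at 24.6 or below.

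The SUN genes diverged with blebbistatin. Sun1, whose protein also serves in meiotic telomere attachment and in nuclear pore distribution, stood at 108, 103 and 106 CPM in DMSO, at 95.8, 93.4 and 90.7 with blebbistatin, and at 114, 118 and 120 with Y27632. The 3 groups did not overlap, with blebbistatin lowest and Y27632 highest. It fell by 0.18 on the log2 scale with blebbistatin (SE 0.037, limma adjusted p = 0.00134) and rose by 0.15 with Y27632 (SE 0.036, limma adjusted p = 0.00530).

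Sun2, the SUN protein tied to actin-dependent nuclear movement, was at 202, 184 and 185 CPM in DMSO, at 248, 257 and 268 with blebbistatin, and at 200.4, 219 and 214 with Y27632. The blebbistatin libraries were above all others, and the lowest Y27632 library lay under the highest DMSO library. With blebbistatin the rise was 0.44 (SE 0.043, limma adjusted p = 2.83e-06), or 35.4%, the largest increase among the 10 genes. With Y27632 the rise was 0.15 (SE 0.044, limma adjusted p = 0.0171), and this call was lost when any one of 4 libraries was left out, with adjusted p of 0.0789 without DMSO library 2, 0.0513 without DMSO library 3, 0.0760 without Y27632 library 2 and 0.0609 without Y27632 library 3.

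The sequences upstream of Sun2 and Sun1 are shown because these partner genes moved in opposite directions with blebbistatin. They are RefSeq sequences of build GRCm38.p6, given on the gene's own strand from 5′ to 3′ up to the base before the first annotated transcript of the gene, Sun2 at chr15:79742537-79742786 on the minus strand and Sun1 at chr5:139200387-139200563 on the plus strand. Capitals mark CCAAT or its complement ATTGG. The Sun1 stretch has 177 bases and that of Sun2 250. A further ATTGG of the Sun1 window searched below lies 15 bases before the transcription start used for that window, downstream of the printed stretch. The number of marks is therefore not comparable between these stretches.
Sun2: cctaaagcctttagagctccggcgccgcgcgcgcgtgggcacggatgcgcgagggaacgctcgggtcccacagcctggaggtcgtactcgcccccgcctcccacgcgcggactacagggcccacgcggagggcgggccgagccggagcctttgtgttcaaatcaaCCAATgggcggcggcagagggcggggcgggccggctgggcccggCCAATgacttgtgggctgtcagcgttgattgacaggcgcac
Sun1: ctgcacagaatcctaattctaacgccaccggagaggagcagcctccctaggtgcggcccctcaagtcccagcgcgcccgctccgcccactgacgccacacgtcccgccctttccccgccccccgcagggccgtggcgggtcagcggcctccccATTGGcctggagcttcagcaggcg
RefSeq start windows were used for 9 of the 10 members, 14 windows in all, and the 250 bases before each start were searched on both strands, as were those of 32851 windows of all genes. CCAAT occurred in 6 of the 14 member windows and in 33.8% of all windows, and the GC box GGGCGG in 8 of 14 and in 32.7%. Of the other motifs, the TEAD motif GGAATG occurred in 2 of 14, a window of Syne1 and that of Emd, beside 12.6% of all windows. The pattern TGANTCA, searched for AP-1 with any base allowed at N, occurred in 1 of 14 beside 6.75%. No CArG box was found in the 14 windows, beside 1.47% of all. In the Sun2 stretch, the CCAAT that lies 85 bases before the start is followed directly by a GC box. A match to such letters describes the window and is not a measured binding site.

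The nesprins were lower in both treatments where they passed the test. Syne2, which encodes the actin-binding giant nesprin-2, was at 166, 171 and 136 CPM in DMSO, at 118, 122 and 125 with blebbistatin, and at 99.1, 125 and 123 with Y27632. All 6 treated libraries were below the lowest DMSO library, which was library 3. The change was -0.37 with blebbistatin (SE 0.070, limma adjusted p = 7.34e-04) and -0.44 with Y27632 (SE 0.091, limma adjusted p = 0.00203). Without DMSO library 3 the changes were -0.47 and -0.55, and without Y27632 library 1 the second was -0.33, each of them still past the threshold.

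Syne1, which encodes nesprin-1, its close relative, was at 114, 119 and 83.2 CPM in DMSO, at 89.4, 98.3 and 87.4 with blebbistatin, and at 67.7, 86.6 and 89.3 with Y27632. The DMSO library 3 value lies below all 3 blebbistatin values, so that both treated groups overlap with DMSO. The change with blebbistatin was -0.19 (SE 0.105, limma adjusted p = 0.151), and without DMSO library 3 it was -0.35 (limma adjusted p = 1.01e-04), past the threshold. With Y27632 it was -0.37 (SE 0.121, limma adjusted p = 0.0290). That call became -0.31 without DMSO library 1, -0.27 without DMSO library 2 and -0.25 without Y27632 library 1, with limma adjusted p of 0.114, 0.135 and 0.111, and it strengthened to -0.54 without DMSO library 3 (limma adjusted p = 4.11e-04). DESeq2 gave -0.38 with an adjusted p of 0.141, so the call was lost there too.

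Syne3 encodes nesprin-3, which binds plectin and so the intermediate filaments. Its level was 102, 97.7 and 85.1 CPM in DMSO, 83.5, 95.0 and 86.1 with blebbistatin, and 95.4, 102 and 107 with Y27632, and both treated groups overlapped with DMSO. The differences of -0.11 with blebbistatin (SE 0.064, limma adjusted p = 0.187) and 0.10 with Y27632 (SE 0.062, limma adjusted p = 0.240) did not pass. Without DMSO library 3 the first was -0.18 (limma adjusted p = 0.0112) and the second 0.02, and without Y27632 library 1 the second was 0.15 (limma adjusted p = 0.107). Leaving DMSO library 3 out thus brought all 10 members past the threshold with blebbistatin, 2 higher and 8 lower.

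The nesprins lay low in the same libraries as the other long mRNAs. In DMSO library 3, Syne1 lay -0.48, Syne2 -0.31 and Syne3 -0.23 from the mean of the other DMSO libraries on the log2 scale, where the 20 long genes ranged from -0.55 to -0.25. The 20 genes themselves had a median change of -0.31 with blebbistatin, 11 of them called lower, and of -0.44 with 18 called lower once DMSO library 3 was left out. With Y27632 their median was -0.10 with 4 called lower, -0.23 with 13 called lower without DMSO library 3, and -0.03 with 2 called lower and 1 higher without Y27632 library 1. The part of transcript length in the nesprin results was not tested. The counts do not separate the many isoforms of the nesprin genes, and Syne1, Syne2 and Syne3, as well as Emd, overlap other annotated genes in RefSeq, whose reads cannot be told apart here because the use of strand is not stated.

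**Figure D3:**
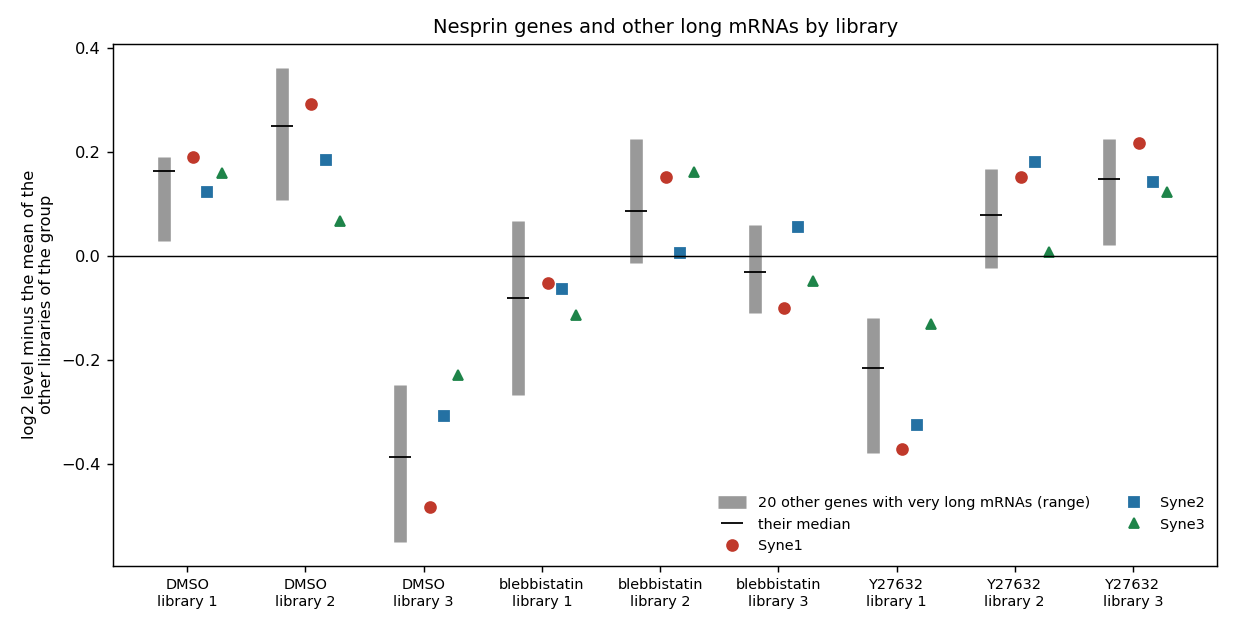
Log2 level of the nesprin genes in each library minus the mean of the other libraries of its group. Grey bars give the range of 20 other genes with very long mRNAs and black lines their median, which is -0.39 in DMSO library 3 and -0.22 in Y27632 library 1, where the nesprin genes also lie below 0.

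Emd encodes emerin, a LEM-domain protein of the inner nuclear membrane that binds lamins and the chromatin protein BAF. It stood at 40.8, 39.3 and 39.7 CPM in DMSO, at 34.7, 36.5 and 36.4 with blebbistatin, and at 38.5, 40.9 and 41.1 with Y27632. The blebbistatin libraries were below all others, and the Y27632 libraries overlapped with DMSO. The change was -0.16 with blebbistatin (SE 0.045, limma adjusted p = 0.0106), and over 13 alternatives its adjusted p ran from 0.0106 to 0.0505, the highest being that of DESeq2. With Y27632 the difference was 0.01 (SE 0.045, limma adjusted p = 0.925).

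Lbr had the largest change of the 10 genes with blebbistatin. Its protein holds B-type lamins and heterochromatin at the nuclear envelope and is also a sterol reductase. Its level was 65.7, 63.0 and 69.0 CPM in DMSO, 34.1, 32.0 and 33.5 with blebbistatin, and 53.2, 52.8 and 51.9 with Y27632. The 3 groups did not overlap, and the Y27632 libraries lay between the others. In normalised counts, blebbistatin took it from 1750 ± 76.1 to 881 ± 33.6 (SD, n = 3), by -0.99 on the log2 scale (SE 0.048, limma adjusted p = 4.72e-09), and Y27632 from 1818 ± 79.9 to 1451 ± 13.6 (SD, n = 3), by -0.32 (SE 0.041, limma adjusted p = 5.21e-05).

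The 250 bases before the Lbr start are shown because this gene had the largest fall, from RefSeq GRCm38.p6 at chr1:181842402-181842651 on the minus strand. Capitals mark CCAAT, 68 and 28 bases before the start, and between them the AP-1 motif TGATTCA, 48 bases before the start.
Lbr: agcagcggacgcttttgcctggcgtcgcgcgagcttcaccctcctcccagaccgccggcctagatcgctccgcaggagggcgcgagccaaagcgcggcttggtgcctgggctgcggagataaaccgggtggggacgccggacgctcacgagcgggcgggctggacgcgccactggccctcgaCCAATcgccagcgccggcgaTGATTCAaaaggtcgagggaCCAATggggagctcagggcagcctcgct
The Lbr window was the only member window of the 14 that matched the pattern TGANTCA. GC content was 69.6% in this stretch, beside 70.8% in that of Sun2 and 70.6% in that of Sun1.

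A direct comparison of the inhibitors was made in 1 edgeR fit over the 9 libraries, at the doses given above, which differ between the inhibitors. Of the 10 members 8 differed, 2 higher and 6 lower with blebbistatin, where 52.4% of all genes tested differed, 26.5% higher and 25.8% lower. The libraries did not overlap for 8 members and for 60.1% of all genes. Without scaling beyond library size the split of all called genes moved from 4049 higher and 3941 lower to 5128 higher and 2919 lower, the median of all genes shifted from 0.01 to 0.07, and 6 members were called, Syne3 and Emd being lost.

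With blebbistatin relative to Y27632, Lmna was higher by 0.25 (SE 0.041, edgeR adjusted p = 1.13e-04) and Sun2 by 0.30 (SE 0.044, edgeR adjusted p = 5.41e-05). Lbr was lower, at -0.66 (SE 0.045, edgeR adjusted p = 2.37e-08), as were Lmnb1 at -0.58 (SE 0.067, edgeR adjusted p = 4.92e-06), Lmnb2 at -0.52 (SE 0.077, edgeR adjusted p = 5.85e-05) and Sun1 at -0.32 (SE 0.035, edgeR adjusted p = 3.27e-06). These 6 genes had groups that did not overlap, and each was called under every alternative setting tried for this comparison. Syne3 at -0.19 (edgeR adjusted p = 0.0214) and Emd at -0.15 (edgeR adjusted p = 0.00993) were the smaller differences. The Syne3 call was lost without blebbistatin library 1, blebbistatin library 3 or Y27632 library 3, with edgeR adjusted p of 0.0728, 0.0523 and 0.0899. Syne1 at 0.19 (SE 0.115, edgeR adjusted p = 0.181) and Syne2 at 0.08 (SE 0.086, edgeR adjusted p = 0.450) did not pass, which does not show that the inhibitors act alike on them. Without Y27632 library 1 these were 0.06 and -0.03, and Syne3 was -0.25. Without DMSO library 3, Syne1, Syne2 and Syne3 were 0.19, 0.08 and -0.19. The DMSO libraries enter this comparison only through the shared scaling, filtering and estimate of spread. Leaving a DMSO library out could therefore hardly move these differences, and the last values are no check of them.

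**Figure D4:**
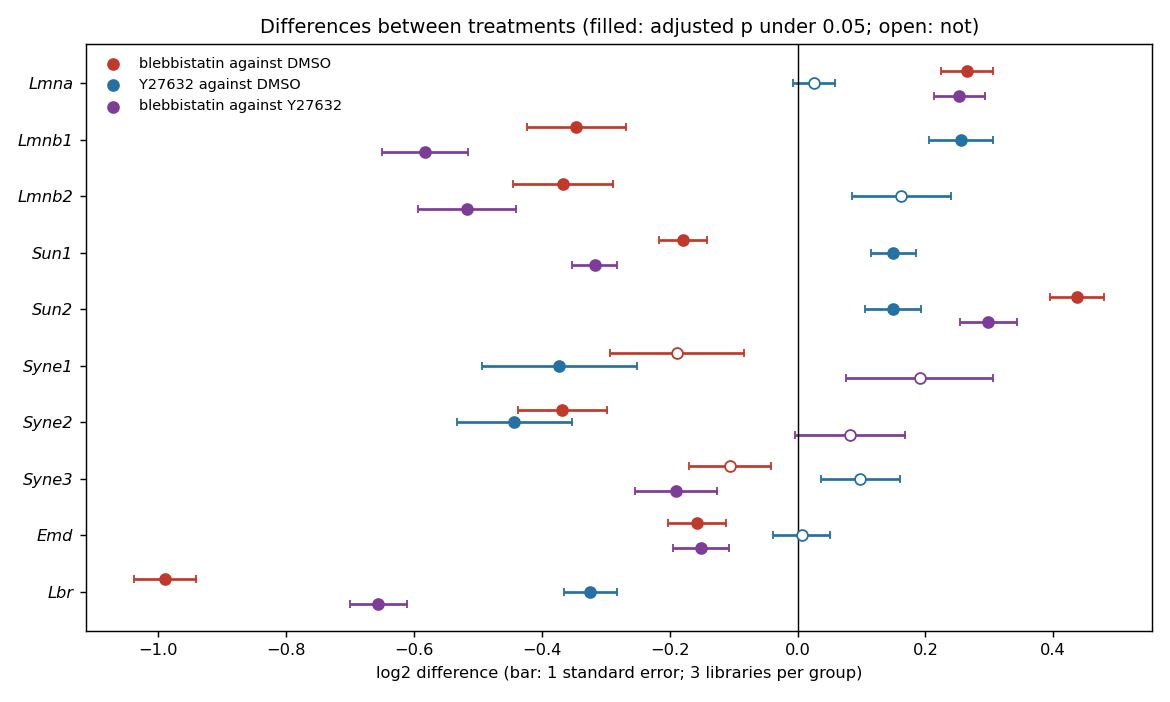
Log2 difference of each member for blebbistatin against DMSO, Y27632 against DMSO and blebbistatin against Y27632, with bars of 1 standard error. The comparisons with DMSO are from limma and the last is from edgeR. Filled points passed an adjusted p of 0.05 and open points did not. Lbr lies at -0.99, -0.32 and -0.66, and Lmnb1 at -0.35, 0.26 and -0.58.

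Ordered by level, Lmnb1 and Sun1 were lowest with blebbistatin and highest with Y27632, and both neighbours in this order differed beyond their spread. Lbr was lowest with blebbistatin and highest in DMSO, again with both neighbours apart. Sun2 was lowest in DMSO and highest with blebbistatin, and both neighbouring differences passed the test. Its Y27632 and DMSO libraries overlapped, however, and the call between them was lost when some single libraries were left out. For Lmna, Lmnb2 and Emd, DMSO and Y27632 were neighbours whose difference did not pass the test. For Lmnb2 that difference was 0.16, and 0.23 without Y27632 library 1 (limma adjusted p = 0.0508). Syne2 was highest in DMSO, with no difference past the test between the inhibitors.

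The counts of the gene lists that follow stand beside shares over all genes tested of 26.1% higher and 26.9% lower with blebbistatin, and of 18.1% higher and 17.8% lower with Y27632. They are descriptions, and a list whose share called is near these is no result about that list.

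The wider nuclear envelope and lamina partners were split. Of 22 genes, 5 rose, 9 fell and 8 did not pass with blebbistatin (median -0.01), and 7 rose, 6 fell and 9 did not pass with Y27632 (median 0.06), beside 53.0% and 35.9% of all genes called. Tmpo, which encodes the LAP2 proteins that bind lamins and BAF, changed by -0.70 with blebbistatin, from 6926 ± 23.3 in DMSO to 4259 ± 113 in normalised counts (SD, n = 3). Nrm, the gene of the inner membrane protein nurim, fell by 0.68 and Lemd2, another LEM-domain protein gene, rose by 0.48. With Y27632, Lpin1, a phosphatidate phosphatase gene, changed by -0.37, Nrm by -0.36 and Tor1aip2, which encodes an activator of torsin, by 0.28. Under DESeq2 the number of these genes called with Y27632 was 7 in place of 13.

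Prelamin A is farnesylated, cut and methylated before it becomes lamin A. Of 6 genes of this processing, 4 fell with blebbistatin, among them Icmt, the carboxyl methyltransferase, at -0.31, Fntb, a farnesyltransferase subunit, at -0.29, and Zmpste24, the prelamin protease, at -0.17, and 2 did not pass, where 26.9% of all genes fell. Their median was -0.16, and DESeq2 called 3 of the 6. With Y27632, limma called 0 of the 6, with 0 at an unadjusted p under 0.05, and edgeR and DESeq2 also called 0. Lmna itself rose in the same blebbistatin libraries.

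Cytoskeletal partners of the linkers, listed together with the less widely expressed SUN and KASH genes, were mostly lower in both treatments. Of 18 tested with blebbistatin, 14 fell and 4 did not pass (median -0.32), and of 19 tested with Y27632, 10 fell, 1 rose and 8 did not pass (median -0.20), where 26.9% and 17.8% of all genes fell, in that order. Fhl2, a LIM-domain protein gene, changed by -2.07 with blebbistatin, from 2269 ± 66.3 in DMSO to 539 ± 33.0 in normalised counts (SD, n = 3), and by -0.74 with Y27632. Fhod1, a formin that binds nesprin-2, changed by -0.57 and -0.60, in that order. Kif5b, the kinesin heavy chain that nesprins recruit, fell by 0.86 with blebbistatin, and Flna, the actin cross-linker filamin A, by 0.47 with Y27632. Plec, which encodes the nesprin-3 partner plectin, changed by -0.53 and -0.38. This list was drawn up with earlier results of these libraries known, so it is no independent evidence of a direction. The 20 genes with very long mRNAs described above had a median change of -0.31 with blebbistatin and -0.10 with Y27632. The part of transcript length in the falls of the cytoskeletal list was not tested.

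Of 28 nuclear pore genes tested, 15 fell, 3 rose and 10 did not pass with blebbistatin (median -0.11), where 26.9% of all genes fell and 26.1% rose. The falls were led by Sec13 at -0.59, Nup107 at -0.48 and Ahctf1 at -0.42, all genes of the pore scaffold or its docking on chromatin. With Y27632, 6 rose, 3 fell and 19 did not pass (median 0.06), beside 35.9% of all genes called, and the named changes were 0.32 for Nup62, -0.30 for Nup93 and 0.24 for Nup155.

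Because Lmnb1 and Tmpo are also expressed with the cell cycle, 20 proliferation genes were read beside them. With blebbistatin 6 fell, 3 rose and 11 did not pass (median -0.09), a share called below the 53.0% of all genes, with Rrm2 at -0.82, Ccna2 at -0.48 and Aurka at -0.35. With Y27632, 2 fell, 1 rose and 17 did not pass (median -0.05), again a share below the 35.9% of all genes, with Tyms at -0.24, Rrm2 at -0.19 and Mcm4 at 0.16, and DESeq2 called 1 in place of 3. The part of proliferation in the Lmnb1 result was not tested.

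Across the 9 RNA libraries, the 5 genes whose log2 level was most like that of Lmna, among 11464 genes ranked, were Usf2 with a Pearson r of 0.983, Cotl1 with 0.981, Usf1 with 0.975, H2-T23 with 0.974 and Cenpb with 0.973. Mean levels of Usf2 were 33.3 CPM in DMSO, 41.8 with blebbistatin and 34.7 with Y27632, which is the order seen for Lmna. For Lmnb1 they were Dffa with 0.985, Ipmk with 0.983, Naaladl2 with 0.983, Asb1 with 0.982 and Map3k7 with 0.981. Asb1 stood at 23.8, 19.2 and 29.4 CPM in the same order of groups. The 9 points share 3 treatments, so these values describe likeness between group means as much as between libraries.

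In the site lists, the members appeared only in comparisons that involve doxycycline. The lists hold the authors' group means and no values per library, so no error can be given. No site in the ATAC list of blebbistatin against DMSO, with 970 sites or 1.54% of an estimated 62846 tested, was annotated to a member, and none in the ATAC list of Y27632 against DMSO, with 207 sites or 0.335%, or in the list of blebbistatin without doxycycline, with 1231 sites or 1.78%. Every list stops at an FDR of 0.05, and the 3 lists of the doxycycline experiment also at an absolute log2 fold of 1.0, so a member site missing from a list may still differ, and in those 3 lists may even pass the FDR. Of 14882 expressed genes, 3.49%, 0.833% and 4.30% had a site in these lists.

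With doxycycline against neither drug, 5 sites at 4 members were listed, all higher with doxycycline, in a list that held 9.36% of the sites tested and in which 95.8% of sites were higher. Its sites reached rank 32282 of an estimated 81359 tested by p-value, so the fold cut rather than the FDR set the share of 9.36%. Some 24.3% of expressed genes had a site there. The site with the largest fold lay in intron 1 of Lmnb1 at chr18:56722860-56723155 (mm10), 15195 bases after the start, with authors' log2 means of 6.89 with doxycycline and 5.52 with neither drug, a log2 fold of 1.38 and an FDR of 1.24e-07. The next lay between genes at chr3:88512607-88512826, 9365 bases before an Lmna start, with means of 7.22 and 6.06, a log2 fold of 1.17 and an FDR of 6.21e-07. The other sites were 6002 bases before Lbr, with a log2 fold of 1.11, in the promoter of a Syne3 transcript 555 bases before its start, with 1.07, and 5280 bases before that start in an intron of a longer Syne3 transcript, with 1.01.

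With blebbistatin added to doxycycline, 5 sites at 3 members were listed, all lower than with doxycycline alone, in a list that held 8.75% of the sites tested and in which 99.8% of sites were lower. Its sites reached rank 47795 of an estimated 72539 tested by p-value, so the fold cut rather than the FDR set the share of 8.75%. Some 17.5% of expressed genes had a site there. The largest fold was in an intron of Sun1 at chr5:139229879-139230033 (mm10), with authors' log2 means of 4.15 with both drugs and 5.5 with doxycycline alone, a log2 fold of -1.35 and an FDR of 1.73e-04. The same Lmnb1 interval followed, with means of 5.68 and 6.89, a log2 fold of -1.22 and an FDR of 1.69e-08. A pair of neighbouring sites in the same Lmnb1 intron had log2 folds of -1.08 and -1.15. The site annotated to Syne1, with -1.08, lay 84935 bases after the start of the transcript named by the annotation, in an intron of another gene and outside the Syne1 span in RefSeq.

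The group with doxycycline alone serves both lists, so the rise and the fall at the Lmnb1 interval share one measured value and are not independent. Found after the values were seen, 2 further listed sites lay inside Syne2, in intron 62 of 115, but were annotated to the microRNA gene Mir5101. One of them, at chr12:76005046-76005312, had log2 folds of 1.24 with doxycycline and -1.0 with blebbistatin added, and the other, at chr12:76004691-76004976, had 1.25 with doxycycline.

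**Figure D5:**
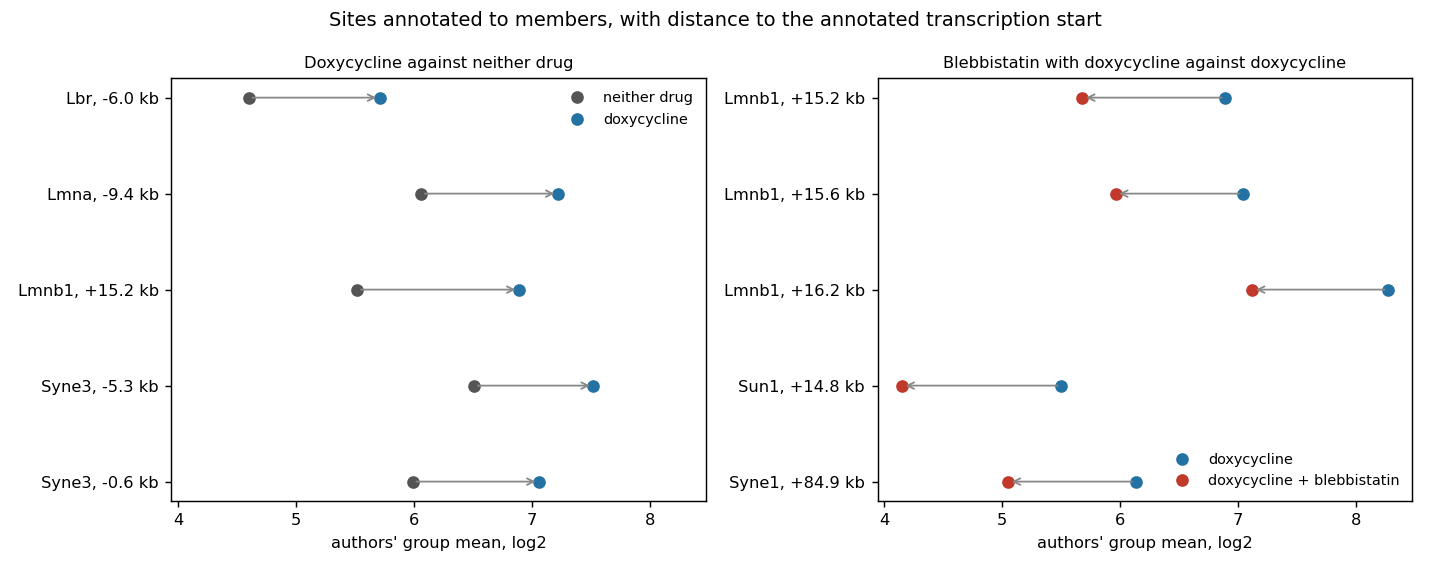
The authors' log2 group means at the 10 listed sites annotated to members, named by gene and distance in kilobases from the annotated transcription start, with arrows from the reference group to the treated group. At the Lmnb1 site 15195 bases after the start, the mean was 5.52 with neither drug, 6.89 with doxycycline and 5.68 with both drugs.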

How the data were processed

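The authors deposited RNA values per gene and library as a signal, which the values show to be counts divided by a size factor, separately in each table. The values recovered as whole reads within a tolerance of 0.1 in 100% of cases, and DMSO reads differed between the tables at 0 of 35972 shared genes. The authors also deposited a log2 fold and an adjusted p per gene. By that deposited adjusted p, Emd with blebbistatin (0.0505) and Syne1 with Y27632 (0.141) did not pass 0.05, as with DESeq2 here. The other members were called as by limma. Site lists hold log2 group means, log2 folds, p-value and FDR columns and distances, per the file headers. The submitters' processing notes name HISAT2, featureCounts, DESeq2, Bowtie2, MACS2, DiffBind, HOMER and build mm10 without their roles. Sample columns without a label numbered 0. The reference column of the doxycycline list is headed as blebbistatin without doxycycline, but at 13 shared sites its values differed from that group by 1.12 on average and from the group with neither drug by -0.13, so it was read as the latter.

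Here, limma 3.58.1 (trend, R 4.3.3) tested log2(value + 1) for genes with a mean of at least 10, with Benjamini-Hochberg adjustment over all genes. edgeR 4.0.16 (quasi-likelihood, TMM, filterByExpr) compared the inhibitors on recovered reads of 9 libraries. DESeq2 1.42.0 served as an alternative. Fits were tested on simulated data. Named list genes were the 3 largest changes per list and treatment among called genes with a mean of at least 100 and no overlap between groups, and Plec was added after its values were seen. Members and lists were chosen with earlier results of these data known. All replicate pairs differed beyond sampling noise.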

Additional observations from a re-analysis of the deposited data

Results flagged for a closer look

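For 5 members the differences from DMSO had opposite signs under the inhibitors and the direct edgeR comparison of blebbistatin with Y27632 passed an adjusted p of 0.05. The log2 difference between the inhibitors was -0.58 for Lmnb1, -0.52 for Lmnb2, -0.32 for Sun1, -0.19 for Syne3 and -0.15 for Emd, each lower with blebbistatin. For Lmnb1 and Sun1 both changes from DMSO had also passed on their own. For Lmnb2 and Emd the blebbistatin change alone had passed, and for Syne3 neither had, so opposite responses are not shown for these genes. With Y27632 the Emd difference was 0.01 and changed sign when some single libraries were left out, and that of Syne3 was 0.10.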

How the results depend on the processing

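Each of Lmna, Lmnb1, Lmnb2, Sun1, Sun2, Syne2 and Lbr was called with blebbistatin under all 13 alternatives, and Lmnb1, Sun1, Syne2 and Lbr were called with Y27632 under all 13, with Lbr between -1.02 and -0.96 in the first comparison and between -0.36 and -0.29 in the second. Leaving out 1 library gave 8 to 10 members called with blebbistatin, 4 to 5 with Y27632 and 7 to 8 between the inhibitors, and a log2 difference in the Lmna to Lmnb1 ratio of 0.55 to 0.73 and of -0.25 to -0.20. Directions turned only for differences that had not passed: Emd with Y27632 became -0.0041 without DMSO replicate 2, -0.0070 without Y27632 replicate 2 and -0.0127 without Y27632 replicate 3, in a range up to 0.039. Lmna with Y27632 became -0.0062 without Y27632 replicate 3, in a range up to 0.047, and Syne2 between the inhibitors became -0.034 without Y27632 replicate 1, in a range up to 0.13. The cause was not tested. DESeq2 called 7 nuclear envelope partners and 1 proliferation gene with Y27632, and 7 members with blebbistatin and 5 with Y27632. With no filter on low counts Syne1 differed between the inhibitors (0.18, edgeR adjusted p = 1.02e-04). The labels do not say whether replicate numbers pair the libraries. Correlations of same-numbered libraries lay between -0.12 and 0.06, and those of differently numbered libraries between -0.15 and 0.13. With 3 libraries per group these values cannot show whether a number marks a shared origin. With the number as a replicate block, limma called 9 members with blebbistatin, where Syne1 was gained at an adjusted p of 0.0454, and 6 with Y27632, and edgeR called 8 between the inhibitors. A stricter FDR of 0.01 or a distance within 100 kb left the count of member sites as it was. The highest FDR of a member site was 8.92e-04 and the largest distance 84935 bases, so neither cut reached any of them. Lmnb2 had the lowest counts of the members. The number of libraries limits each p-value, and the depth behind the site values is unknown.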
